A study of Mus musculus with 12 samples.

Results

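The 10 genes described here encode secreted cytokines that fibroblasts are known to make: Csf1, Csf2, Csf3, Il6, Il11, Lif, Il33, Il34, Kitl and Tslp. They were chosen as a list of gene symbols by a rule that uses no measured value, though with earlier results of these data known, and all 10 were found among the 17571 genes of the deposited table through their Entrez Gene identifiers. RNA was sequenced from L929 cells, an established line of mouse fibroblasts from subcutaneous connective tissue of a C3H/An mouse, with 3 libraries in each of 4 groups. The mock group received the vehicle DMSO, the pEGFP-N1 group received DMSO and was transfected with the plasmid pEGFP-N1, the BX795 group received 0.5 µM of the TBK1 inhibitor BX795, and the BX795+pEGFP-N1 group received both. BX795 or DMSO preceded the plasmid by 1 h, and cells of all groups were harvested after 6 h. All groups are the same parental line, so the libraries describe 1 cell line.

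These cytokines act on other cells through surface receptors. CSF1 and IL-34 are the known ligands of CSF1R, the receptor that macrophages need to survive and grow, and medium conditioned by L929 cells is a long-used source of CSF1 for growing macrophages from bone marrow. IL-6, IL-11 and LIF signal through the shared receptor chain gp130, encoded by Il6st, to JAK kinases and STAT3. GM-CSF (Csf2) and G-CSF (Csf3) act on myeloid cells, stem cell factor (Kitl) acts on the receptor KIT, and IL-33 and TSLP alert immune cells at barrier tissues. Transfected plasmid DNA is sensed by cGAS and STING, which act through the kinase TBK1 to switch on interferon genes, and TBK1 and its relative IKKε also meet the NF-κB pathway that drives many cytokine genes.

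Expression is given as FPKM, a level per unit of transcript length scaled to the size of the library. How many reads stood behind a value cannot be recovered from FPKM, and the depth is therefore unknown. Summed over genes, a library held from 467348 to 513761 FPKM, with the lowest sum in BX795+pEGFP-N1 replicate 3. Of the fibroblast markers, Vim (1576 to 2101 FPKM), Col1a1 (48.1 to 78.4 FPKM) and Pdgfrb (20.6 to 41.2 FPKM) were read in all libraries, while Dcn, Thy1 and Fap stayed at or below 0.21 FPKM. Of 8 macrophage or monocyte markers only Cd68, a lysosomal protein (111 to 138 FPKM), and Cd14 (at most 1.25 FPKM) reached 1 FPKM, Ptprc and Adgre1 did not pass 0.04 FPKM, and no endothelial, epithelial or lymphocyte marker listed reached 1 FPKM. The library labelled pEGFP-N1 replicate 2 and the library labelled BX795+pEGFP-N1 replicate 1 stood apart from the others of their groups in 8 interferon-stimulated genes. The summed FPKM of these genes was 5.31 in pEGFP-N1 replicate 2 against 650.84 and 608.63 in the other two libraries of that group, and 641.07 in BX795+pEGFP-N1 replicate 1 against 11.75 and 18.20 in the other two. It was 5.07 to 6.20 in mock and 4.77 to 16.65 with BX795. The labels were kept as given, and the fold changes and calls of the cytokines that rest on these libraries are given with all 12 libraries and with the 10 that remain without both. That choice was made on interferon-stimulated genes, not on the cytokines, but it is not independent of them. Csf1, Il6 and Il33 were highest in the 3 libraries with high interferon-stimulated genes, and Lif was lowest there among transfected libraries. The choice leaves replicates 1 and 3 of pEGFP-N1 and replicates 2 and 3 of BX795+pEGFP-N1. Why the 2 libraries go against their labels was not tested. BX795+pEGFP-N1 replicate 1 thus lay between the high pEGFP-N1 libraries. In contrast, pEGFP-N1 replicate 2 lay below the low BX795+pEGFP-N1 libraries and within the ranges of mock and of BX795. Whether the 2 libraries were exchanged was not tested. If they were, every mean, SD and fold change of the pEGFP-N1 and BX795+pEGFP-N1 groups from all 12 libraries would mix both treatments. For the samples that were sequenced, the paper reports RT-qPCR means in which transfection induced Cxcl10 and Isg15 and BX795 inhibited this.

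Csf1 was by far the most abundant of the 10 mRNAs. It was read at 434, 435 and 432 FPKM in the 3 mock libraries, a mean of 434 ± 1.45 (SD, n = 3), which ranked it 169th of 17571 genes. Kitl followed at 17.4 ± 0.289 FPKM, then Il34 at 4.95 ± 0.367, Il11 at 2.97 ± 0.537, Lif at 2.41 ± 0.244 and Il6 at 0.510 ± 0.0866 FPKM (SD, n = 3). Il33, Tslp, Csf3 and Csf2 lay between 0.0467 and 0.143 FPKM on average in mock, and their mock libraries overlapped from each gene to the next in that order. Il11 and Lif also overlapped in mock, while every other neighbouring pair was separated. Csf1 made up between 90.9% and 94.6% of the summed FPKM of the 10 genes in each library. Among 41 listed cytokine and growth factor genes, these 10 and 31 others, it was second in mock to Mif, macrophage migration inhibitory factor, at 866 FPKM. Csf1 (Entrez Gene 12977) lies on the minus strand of chromosome 3 at 107741048 to 107760469 of GRCm38, overlaps no other annotated gene, and shares 0% of its 5307 transcript words of 31 bases with other genes. Sharing was highest for Csf2 at 9.22% and Il11 at 5.15%, so reads of these low genes may be split with others.

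**Figure D1:**
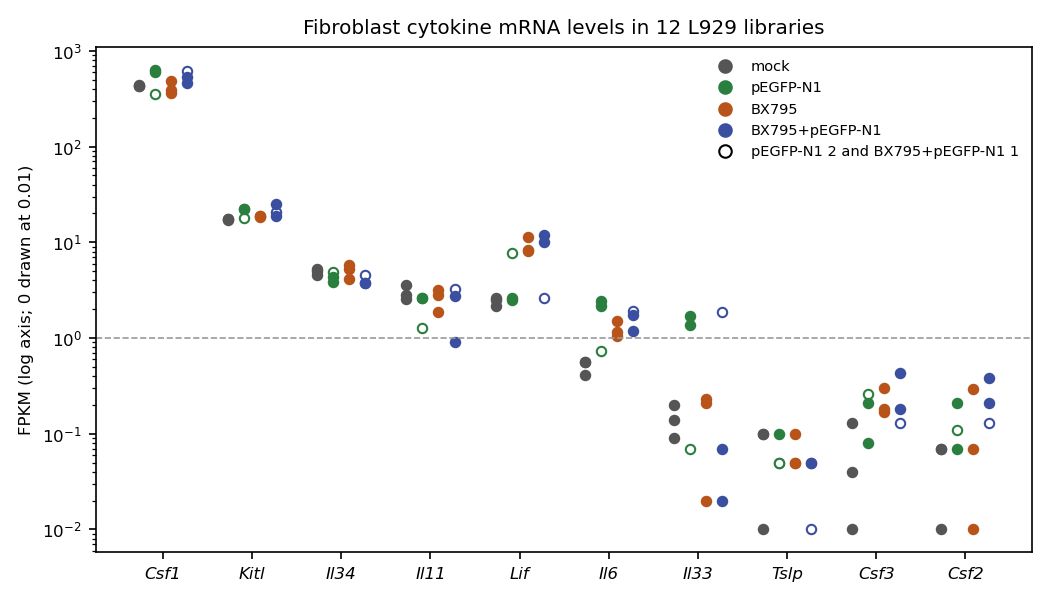
FPKM (log axis, 0 drawn at 0.01) of the 10 cytokine mRNAs in the 12 libraries, ordered by their mean in mock. Points are libraries coloured by group, open points are the libraries labelled pEGFP-N1 replicate 2 and BX795+pEGFP-N1 replicate 1, and the dashed line is 1 FPKM. Csf1 lies between 358 and 632 FPKM in every library, above Kitl at 17.1 to 25.0 FPKM, while Tslp, Csf3 and Csf2 stay below 1 FPKM.

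The bases before the start sites of Csf1, Lif and Il6 are shown because the results below turn on these 3 cytokines. They are the 250 bases upstream of the start given by RefSeq on GRCm38.p6, written 5′ to 3′ on the strand of the gene. They lie at chr3:107760470-107760719 (minus strand) for Csf1, chr11:4257318-4257567 (plus strand) for Lif and chr5:30012864-30013113 (plus strand) for Il6. Capitals mark matches on either strand to an NF-κB-like motif, GGGA and CC with any 4 bases between them, or an AP-1 motif, TGANTCA, and matches that overlap are joined:
Csf1: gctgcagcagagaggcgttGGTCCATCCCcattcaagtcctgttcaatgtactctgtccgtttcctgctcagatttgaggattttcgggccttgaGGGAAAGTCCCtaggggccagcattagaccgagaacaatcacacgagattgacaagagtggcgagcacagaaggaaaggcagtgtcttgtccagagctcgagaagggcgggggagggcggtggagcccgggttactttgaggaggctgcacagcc
Lif: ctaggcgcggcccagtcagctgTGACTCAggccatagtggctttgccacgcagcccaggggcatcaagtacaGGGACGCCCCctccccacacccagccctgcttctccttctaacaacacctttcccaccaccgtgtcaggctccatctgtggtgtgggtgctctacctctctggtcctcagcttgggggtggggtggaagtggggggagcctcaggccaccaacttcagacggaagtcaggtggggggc
Il6: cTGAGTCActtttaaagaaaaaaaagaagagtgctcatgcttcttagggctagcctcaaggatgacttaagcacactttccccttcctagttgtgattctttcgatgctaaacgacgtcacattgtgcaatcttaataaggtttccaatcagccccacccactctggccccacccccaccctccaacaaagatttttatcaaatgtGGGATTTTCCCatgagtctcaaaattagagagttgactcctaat
The Csf1 window held 3 NF-κB-like matches, the first at position -231 from the start site and the others at -155 and -154, which overlap on opposite strands. The Il6 window held 2 overlapping NF-κB-like matches, at positions -44 and -43, and an AP-1 match at -249. The Lif window held 1 NF-κB-like match at position -178 and 1 AP-1 match at -228. Of 32851 upstream windows of this length, 17.6% held the NF-κB-like motif, 6.75% the AP-1 motif and 2.98% an interferon response motif, GAAA and GAAA with any 2 bases between them, which was not matched in the windows of these 3 genes. The Kitl window also held 3 NF-κB-like matches and one of 2 Il11 windows an AP-1 match, while the windows of Csf2 and Il33 held none of the 3 motifs. A match is a run of letters and not a measured binding site.

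In the test across all genes, no cytokine was called in any comparison with all 12 libraries. The test was limma on log2(FPKM + 1), which understates the change of low genes, for the 10412 genes with at least 1 FPKM in at least 3 libraries, and a gene was called at a Benjamini-Hochberg adjusted p under 0.05. Of the 10 cytokines 7 passed the filter, and Csf2, Csf3 and Tslp were too low for it. With the plasmid, 0 of the 7 were called against mock, where 0.0672% of all tested genes were called, and 2 had an unadjusted p under 0.05 (Il6 and Kitl), as 4.69% of genes did. With BX795, 0 of the 7 were called against mock, where again 0.0672% of tested genes were called, and 2 had an unadjusted p under 0.05 (Il6 and Lif), as 13.8% of genes did. In the other 5 comparisons limma called 0 of 7 cytokines and 0% of all tested genes. There, an unadjusted p under 0.05 was found for 0 cytokines in BX795+pEGFP-N1 against pEGFP-N1 (1.59% of genes), 0 in the difference of the plasmid effects with and without BX795 (3.91%) and 1 in BX795+pEGFP-N1 against BX795 (Il34; 5.56%). It was found for 1 in the effect of BX795 averaged over plasmid states (Lif; 11.3%) and for 4 in the effect of the plasmid averaged over BX795 (Csf1, Il34, Il6 and Kitl; 6.12%). The median log2 fold change of the 7 was 0.25 with the plasmid and 0.02 with BX795, against -0.003 and 0.03 over all tested genes. Il6 and Il33 lay under 1 FPKM in every mock library and passed the filter only through treated libraries in which they were higher. The medians and the counts that hold either gene are therefore a description and not support. Since nothing states that the libraries of a group came from separate cultures, the p-values measure only the spread between these libraries, which may be technical. In bulk RNA, fewer cells that make an mRNA and less of it per cell cannot be told apart.

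Lif, a ligand of the receptor pair LIFR and gp130, was the cytokine with the widest difference with BX795. In mock, Lif was read at 2.14, 2.49 and 2.61 FPKM. With BX795 it was read at 11.47, 8.24 and 8.13 FPKM. The groups did not overlap, and the BX795 mean was 3.85 times the mock mean. The limma log2 fold change was 1.58 ± 0.436 (SE), with an adjusted p of 0.218 across all 12 libraries and a 95% confidence interval from 0.62 to 2.53. In a fit of the 6 mock and BX795 libraries alone, which holds neither library that went against its label, the same fold change had an adjusted p of 9.9e-05, and 21% of all genes tested there were called. The exact permutation test, two-sided, gave p = 0.1, the smallest that 3 libraries against 3 allow.

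With the plasmid, Lif was read at 2.49, 7.68 and 2.65 FPKM in pEGFP-N1 replicates 1, 2 and 3 and at 2.64, 11.96 and 9.99 FPKM in BX795+pEGFP-N1 replicates 1, 2 and 3. Replicate 2 of pEGFP-N1 lay near the BX795 libraries and replicate 1 of BX795+pEGFP-N1 near mock, and these are the libraries that went against their labels in interferon-stimulated genes. For BX795+pEGFP-N1 against pEGFP-N1, the log2 fold change of Lif was 0.74 ± 0.436 (SE) with an adjusted p of 0.959 in all 12 libraries, and 1.74 ± 0.148 with an adjusted p of 3.33e-05 without the 2 libraries, where 17.8% of all tested genes were called. Lif was the only 1 of the 6 cytokines tested there to be called, a share near that of all tested genes. Averaged over both plasmid states, the BX795 effect was 1.16 ± 0.308 (adjusted p = 0.314) with all libraries and 1.66 ± 0.0953 (adjusted p = 1.36e-06) without the 2, where 33.6% of genes were called. Two-sided exact permutation of BX795 within plasmid state gave p = 0.015 for this average with all 12 libraries, unadjusted for the 60 such tests run on the 10 genes. Lif was not called with the plasmid against mock: its log2 fold change was 0.49 ± 0.436 (adjusted p = 0.9997) with all libraries and 0.07 ± 0.135 (adjusted p = 0.844) without the 2, with a 95% confidence interval from -0.23 to 0.36.

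Il6 was low but higher with either treatment than in mock. Il6, an inflammatory cytokine that also signals through gp130, was read at 0.41, 0.56 and 0.56 FPKM in mock. The pEGFP-N1 libraries held 2.44, 0.73 and 2.14 FPKM of Il6, those with BX795 1.51, 1.04 and 1.15, and those with both agents 1.93, 1.19 and 1.74. No mock library reached any library of the other groups, although pEGFP-N1 replicate 2 lay just above mock. Against mock, Il6 differed by 0.82 ± 0.22 (log2, SE) with the plasmid (adjusted p = 0.498) and by 0.56 ± 0.22 with BX795 (adjusted p = 0.311) in all 12 libraries. All mock values of Il6 lie under the 1 FPKM of the filter, so Il6 entered every fit only through treated libraries in which it was higher. Its tests in every comparison that holds mock, called or not, the averaged effects and the difference of plasmid effects included, are given as a description and not as support. Without the 2 libraries, Il6 differed from mock with the plasmid by 1.12 ± 0.128 (adjusted p = 0.000443), where 3.09% of tested genes were called, and with BX795 by 0.56 ± 0.115 (adjusted p = 0.00947), where 14.2% were called. In the fit of mock and BX795 libraries alone, which Il6 entered through its 3 BX795 libraries alone (1.04 to 1.51 FPKM), its adjusted p was 0.00721. In the presence of BX795, BX795+pEGFP-N1 against BX795 gave 0.14 ± 0.128 without the 2 libraries (adjusted p = 0.567) and 0.23 ± 0.22 with all 12 (adjusted p = 0.671). Without the 2, the difference between the plasmid effects was -0.98 ± 0.181 (adjusted p = 0.0260), where 0.947% of genes were called. With all 12 libraries that difference was -0.59 ± 0.312 (adjusted p = 0.842).

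Csf1 varied least in mock and most with the plasmid. Its FPKM was 604, 358 and 632 in the pEGFP-N1 libraries, 479, 390 and 367 in the BX795 libraries and 609, 464 and 528 in the BX795+pEGFP-N1 libraries, in replicate order. The group means were 531 ± 151 with pEGFP-N1, 412 ± 59.4 with BX795 and 534 ± 72.8 FPKM with both (SD, n = 3), and pEGFP-N1 replicate 2 was the lowest of the 12 libraries. With all libraries, Csf1 differed from mock by 0.25 ± 0.186 (log2, SE) with the plasmid (adjusted p = 0.9997) and by -0.08 ± 0.186 with BX795 (adjusted p = 0.846), and averaging over BX795 the plasmid difference was 0.31 ± 0.132 (adjusted p = 0.788). Without the 2 libraries, Csf1 rose with the plasmid by 0.51 ± 0.10 (adjusted p = 0.0200), where 3.09% of all tested genes were called. The rise was a 1.42-fold difference on this scale. Csf1 was not called with BX795 alone without the 2 libraries either, at -0.08 ± 0.0897 (adjusted p = 0.580). The 95% confidence interval of that difference ran from -0.28 to 0.11. In plasmid-transfected cells, BX795 gave -0.32 ± 0.110 (adjusted p = 0.0659) without the 2 libraries and 0.04 ± 0.186 (adjusted p = 0.989) with all 12, so the sign of that difference rested on them. The average effect of BX795 on Csf1 without the 2 libraries was -0.20 ± 0.0709 and passed the test (adjusted p = 0.0491), as 33.6% of all genes did. With all 12 libraries it was -0.02 ± 0.132 and was not called (adjusted p = 0.954). Fibroblast markers moved in the same comparisons without the 2 libraries, with 0 of 7 called in all 12. With the plasmid 3 of 7 were called lower than in mock, where 1.34% of all genes were called lower. These were Col1a2, Col3a1 and Pdgfrb, by -0.56, -0.35 and -0.53 on the log2 scale. With BX795 3 of 7 were called higher than in mock, where 9.02% of all genes were called higher. These were Col1a1, Col3a1 and Pdgfrb, by 0.30, 0.34 and 0.29. In BX795+pEGFP-N1 against pEGFP-N1 4 of 7 markers were called (17.8% of all genes), as in the averaged BX795 effect (33.6%). Their part in the cytokine differences was not tested.

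**Figure D2:**
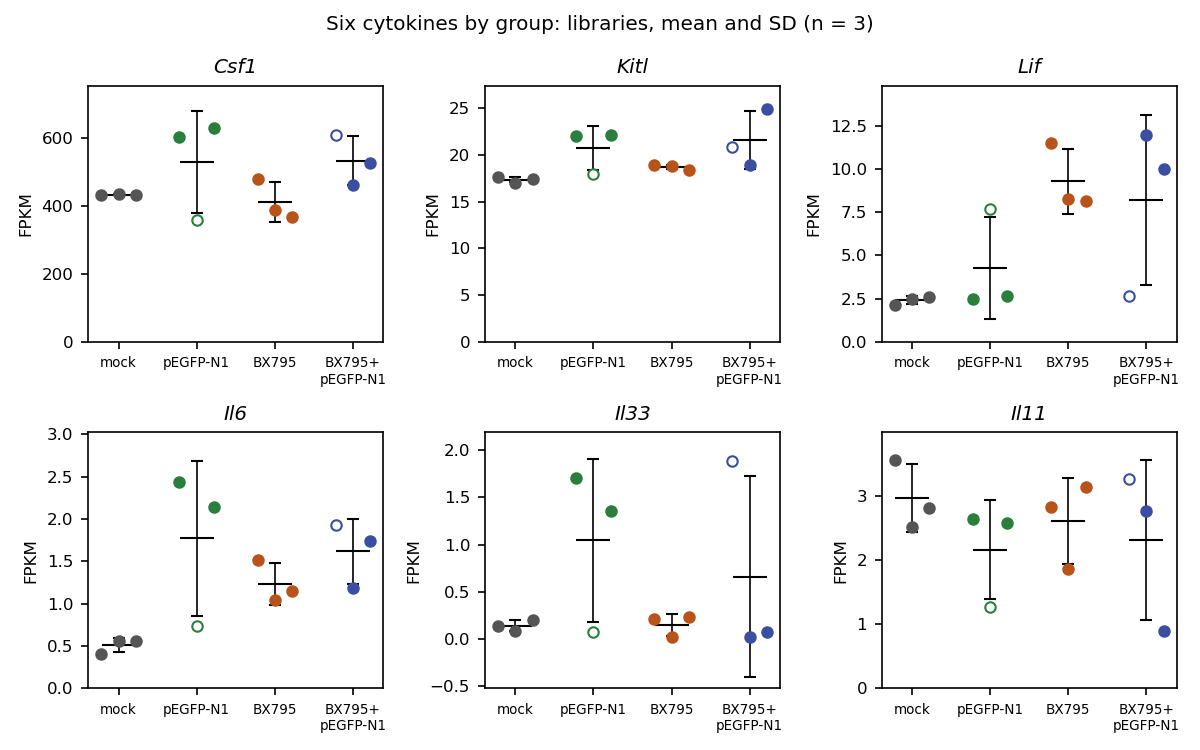
FPKM of Csf1, Kitl, Lif, Il6, Il33 and Il11 by group, each panel with its own axis. Points are libraries, the horizontal bar and error bar are the mean and SD of 3 libraries, and open points are pEGFP-N1 replicate 2 and BX795+pEGFP-N1 replicate 1. Lif is at 8.13 FPKM or more in the BX795 libraries against 2.61 or less in mock, and the open points lie apart from the filled points of their groups for Csf1, Lif and Il33.

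Il33, an alarmin stored in the nucleus, was near 0 in most libraries. The mock libraries held 0.14, 0.09 and 0.20 FPKM of Il33, against 1.71, 0.07 and 1.36 with the plasmid, 0.21, 0.02 and 0.23 with BX795, and 1.89, 0.02 and 0.07 with both agents. The 3 libraries above 1 FPKM are the 3 with high interferon-stimulated genes, and Il33 passed the filter through them alone. Its log2 difference between pEGFP-N1 and mock was 0.73 ± 0.392 (SE) with an adjusted p of 0.9997, and without the 2 libraries Il33 was no longer tested. Its neighbours in pattern over the 12 libraries were Sgms2 (Pearson r = 0.988) and Zbp1 (r = 0.988).

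**Figure D3:**
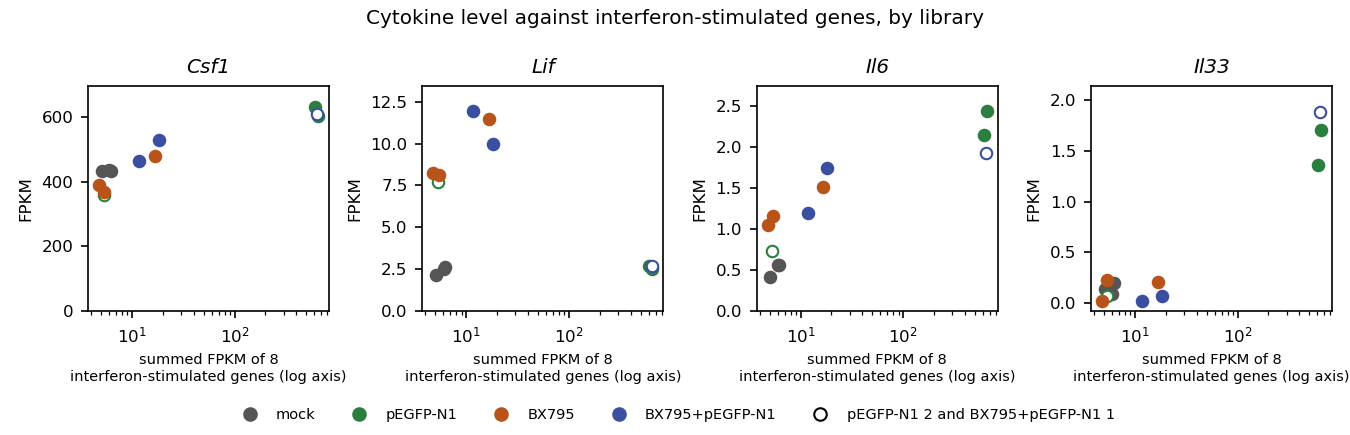
FPKM of Csf1, Lif, Il6 and Il33 in each library against the summed FPKM of 8 interferon-stimulated genes (log axis). Points are single libraries, coloured by group, with pEGFP-N1 replicate 2 and BX795+pEGFP-N1 replicate 1 open. The 3 libraries at 608.63 summed FPKM or more hold the 3 highest values of Csf1, Il6 and Il33. Lif is at 7.68 FPKM or more in pEGFP-N1 replicate 2 and in every BX795 or BX795+pEGFP-N1 library except BX795+pEGFP-N1 replicate 1.

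Kitl, stem cell factor, moved little. Its mean was 17.4 ± 0.289 FPKM in mock, 20.7 ± 2.37 with pEGFP-N1, 18.7 ± 0.254 with BX795 and 21.6 ± 3.10 with both (SD, n = 3). Each treated group lay above mock with no overlap in the comparisons of pEGFP-N1 and of BX795 with mock, and BX795+pEGFP-N1 lay above BX795. In that last comparison the libraries nearly met, at 18.90 FPKM in BX795+pEGFP-N1 replicate 2 against 18.89 in BX795 replicate 1. Replicates 1 and 3 of BX795+pEGFP-N1 held 20.88 and 24.98 FPKM, and replicate 1 is a library that went against its label. Averaged over BX795, the plasmid difference was 0.21 ± 0.0708 (log2, SE; adjusted p = 0.788) with all libraries and 0.27 ± 0.0647 (adjusted p = 0.0473) without the 2, where 3.85% of all genes were called. Csf1 and Kitl were called there, as was Il6, which entered the fit only through treated libraries and lends the count no support. The two-sided exact permutation within BX795 state gave p = 0.005 for Kitl, the smallest its 400 arrangements allow, unadjusted for the 60 tests. The same exact permutation test gave p = 0.02 for Il6, p = 0.07 for Csf1 and, with lower values in the plasmid groups, p = 0.04 for Il34. Against BX795 alone, BX795+pEGFP-N1 gave 0 called cytokines without the 2 libraries, where 0% of all genes were called, and Csf1, Il34 and Kitl were the 3 with an unadjusted p under 0.05, as 14.9% of genes had.

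Il34 and Il11 were not called in the fits of 12 or of 10 libraries. Il34, the second ligand of CSF1R, was read at 3.79 to 5.77 FPKM over the 12 libraries, with group means of 4.95, 4.34, 5.08 and 4.05 FPKM in mock, pEGFP-N1, BX795 and BX795+pEGFP-N1. Its averaged plasmid difference was -0.21 ± 0.0831 (adjusted p = 0.788) with all libraries and -0.28 ± 0.0793 (adjusted p = 0.0673) without the 2. Il11 ranged from 0.90 to 3.57 FPKM, with its lowest value in BX795+pEGFP-N1 replicate 3 and its next lowest, 1.27 FPKM, in pEGFP-N1 replicate 2. Its difference between BX795 and mock was -0.14 ± 0.284 (adjusted p = 0.821). Csf2 reached at most 0.38 FPKM, Csf3 0.43 FPKM and Tslp 0.10 FPKM, and Csf2, Csf3 and Tslp were each listed at 0 in some library. The low Csf3 values were higher in the BX795 libraries (0.30, 0.18 and 0.17 FPKM) than in mock (0.04, 0.13 and 0 FPKM), all below the filter.

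Groups that did not overlap were also counted over the 7 tested cytokines, of which Il6 was tested only through treated libraries. Against mock, 2 of 7 were higher in all pEGFP-N1 libraries (Il6 and Kitl), where 5.52% of tested genes were higher and 7.41% lower, and 3 of 7 were higher in all BX795 libraries (Lif, Il6 and Kitl), where 23.6% were higher and 16.2% lower. Kitl alone, 1 of 7, was higher in BX795+pEGFP-N1 than in BX795, where 4% of genes were higher and 6.66% lower. Its nearest libraries there held 18.90 and 18.89 FPKM. From pEGFP-N1, BX795+pEGFP-N1 was separated for 0 of 7, where 1.39% of genes were higher and 1.41% lower. Of the 3 cytokines under the filter, Csf3 alone was separated, in BX795 against mock. In these 4 comparisons, 0 of the 10 cytokines were lower in every library of the first group than in every library of the second.

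**Figure D4:**
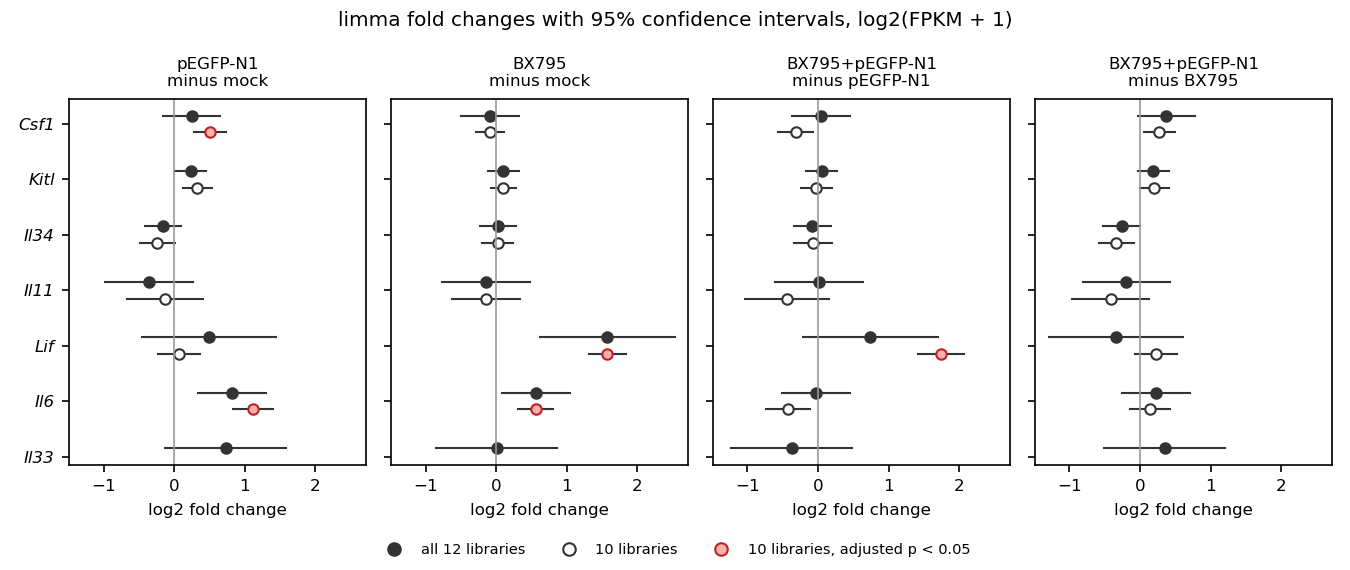
Log2 fold changes of the 7 tested cytokines in 4 comparisons, on the log2(FPKM + 1) scale, with 95% confidence intervals from limma. Filled points are fits of all 12 libraries, open points the fit of 10 libraries without pEGFP-N1 replicate 2 and BX795+pEGFP-N1 replicate 1, and red points have an adjusted p under 0.05; Il33 was not tested in the 10. Lif is at 1.58 with BX795 against mock in both fits and at 0.74 and 1.74 in BX795+pEGFP-N1 against pEGFP-N1, and no filled point is red.

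The receptors of these cytokines were not all expressed. Csf1r did not pass 0.07 FPKM in any library. Csf3r and Il1rl1, the IL-33 receptor, stayed at or below 0.32 FPKM. By contrast Il6st (gp130) was read at 15.8 to 33.8 FPKM, Lifr at 3.23 to 5.10, Il6ra at 4.98 to 7.85 and Il11ra1 at 4.07 to 5.93. Crlf2, a TSLP receptor chain, was read at 7.16 to 11.3 FPKM, but Il7r, its partner chain, did not pass 0.03 FPKM. By mock mean the highest of the list was Sdc1, a syndecan that binds IL-34, at 53.4 ± 1.12 FPKM (SD, n = 3). Il1rap, the co-receptor of the IL-33 receptor, followed at 18.5 ± 0.668, with mock libraries that overlapped those of Il6st. In every BX795 and BX795+pEGFP-N1 library Il6st was higher than Il1rap. Of the 8 receptor genes tested, 0 were called in any comparison of all 12 libraries. Without the 2 libraries, 1 of 8 was called with BX795 against mock: Il1rap fell by 0.45 on the log2 scale (SE 0.0839, adjusted p = 0.00634), where 14.2% of all genes were called. Its adjusted p was 0.145 with all 12 libraries. The shared signalling genes of these receptors were present, with Jak1 at 47.0 ± 1.60, Ptpn11 at 50.9 ± 0.614, Grb2 at 36.3 ± 0.488 and Stat3 at 24.7 ± 0.732 FPKM in mock. The proteases that shed or process CSF1 and other membrane forms were also read, with Mmp14 at 34.2 ± 1.48, Capn1 at 31.5 ± 0.396, Adam10 at 30.5 ± 0.455 and Adam17 at 29.5 ± 0.648 FPKM in mock (SD, n = 3).

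With all 12 libraries, 0 genes were called in any comparison among the transcription factors known to drive cytokine genes (12 tested), the regulators of cytokine mRNA stability (11), the kinases, STATs and feedback genes (12), the processing enzymes (5) or the other secreted cytokines (15). For BX795 against mock, 7, 1, 3, 0 and 1 of these had an unadjusted p under 0.05, and 13.8% of all genes did. Without the 2 libraries, 8 of the 12 transcription factors were called in that comparison, 7 higher and 1 lower, where 9.02% of all genes were called higher and 5.16% lower. Their median log2 fold change was 0.26, against 0.03 over all tested genes. In the fit of mock and BX795 libraries alone, 8 of 12 were called as well, among 21% of all genes. The genes with the highest mock levels in this list were Fosl1 (162 FPKM), Cebpb (112), Rela (47.5) and Nfkb1 (22.4), and of these Cebpb, Rela and Nfkb1 were among the 8.

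The following genes of these lists are named after their values were seen, because they passed without the 2 libraries. Relb, the NF-κB subunit of the noncanonical pathway, had an FPKM of 5.18, 6.21 and 6.03 in mock and of 19.25, 16.10 and 18.27 in BX795-treated cells. It rose by 1.47 ± 0.131 (log2, SE) with BX795 against mock (adjusted p = 8.15e-05). Junb, an AP-1 subunit, rose by 0.75 ± 0.104 (adjusted p = 0.00115). Socs3, the feedback inhibitor that gp130 cytokines are known to induce, had an FPKM of 18.39, 18.32 and 17.96 in mock and of 9.48, 9.56 and 9.30 in BX795-treated cells. Socs3 thus fell by 0.88 on the log2 scale (SE 0.0585, adjusted p = 2.28e-05) where Lif rose. Among the regulators of mRNA stability, 4 of 11 were called with BX795 against mock, where 14.2% of all genes were. Zfp36, tristetraprolin, which binds AU-rich cytokine mRNAs, rose by 0.52 ± 0.0977 (adjusted p = 0.00632), while its paralogue Zfp36l2 fell by 0.33 (SE 0.0658, adjusted p = 0.00859). With all 12 libraries these BX795 differences had the same size and were not called, with adjusted p from 0.0845 for Relb to 0.498 for Zfp36l2. With the plasmid against mock, where 3.09% of genes were called, 1 transcription factor and 1 stability regulator were called: Egr1 rose by 0.995 ± 0.122 (adjusted p = 0.000768) and Zfp36l2 by 0.52 ± 0.0736 (adjusted p = 0.00262). Neither was called with all 12 libraries, where the differences were 0.76 (adjusted p = 0.451) for Egr1 and 0.25 (adjusted p = 0.9997) for Zfp36l2, and pEGFP-N1 replicate 2 lay below mock for Zfp36l2 at 60.94 FPKM. Of the other secreted factors, Fgf7, keratinocyte growth factor, rose with BX795 by 0.77 ± 0.0716 (adjusted p = 0.000103) and fell with the plasmid by 0.72 (SE 0.080, adjusted p = 0.000361). Fgf7 was read at 12.79 and 12.90 FPKM in pEGFP-N1 replicates 1 and 3, below mock at 21.73 to 21.82, and at 38.30 FPKM in replicate 2, above it. With all 12 libraries its plasmid difference was -0.22 (adjusted p = 0.9997) and its BX795 difference had an adjusted p of 0.394.

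**Figure D5:**
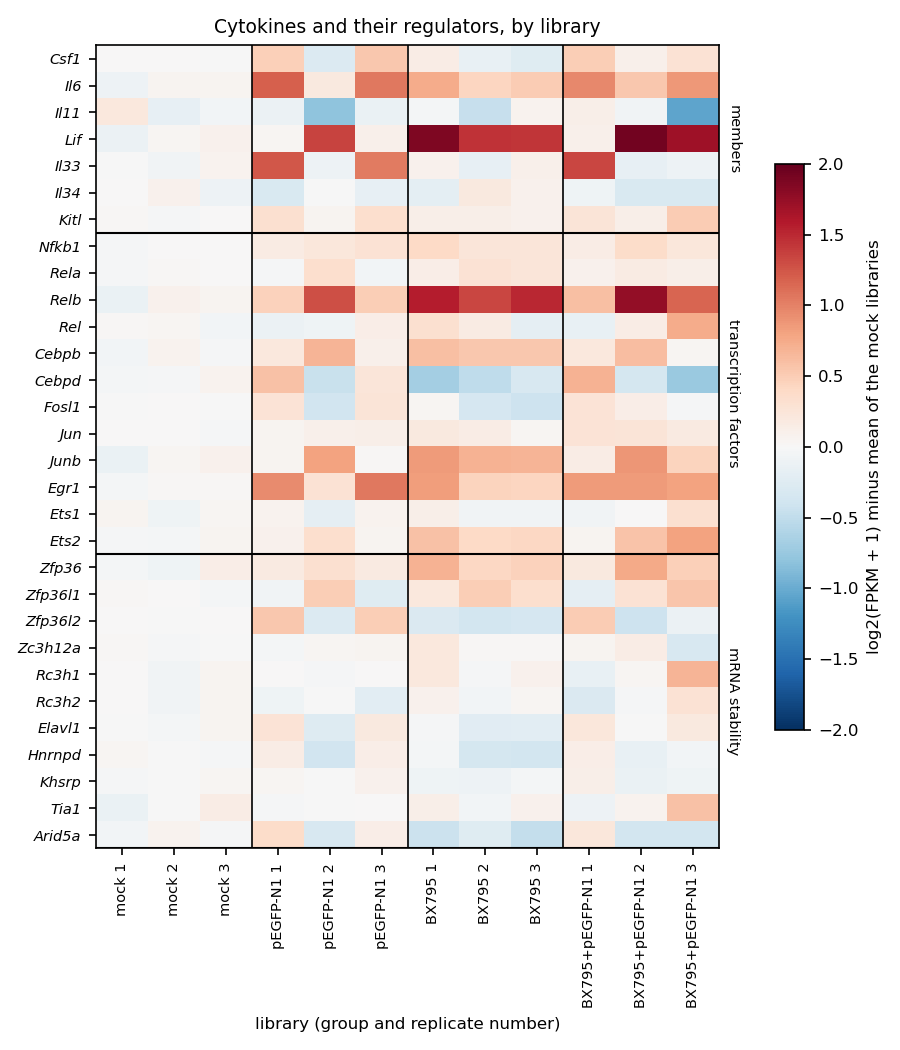
Log2(FPKM + 1) of the 7 tested cytokines, 12 transcription factors and 11 regulators of mRNA stability in each library, minus the mean of the mock libraries (red higher, blue lower, scale from -2 to 2). Columns are libraries by group and replicate number. Lif, Relb and Junb are red in the BX795 libraries, in pEGFP-N1 replicate 2 and in BX795+pEGFP-N1 replicates 2 and 3, and paler in BX795+pEGFP-N1 replicate 1.

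The genes whose pattern over the 12 libraries was most like that of Csf1 were Nol10 (Pearson r = 0.992), Knop1 (0.981), Nfkbiz (0.976) and Cd44 (0.975). For Lif they were Fdps (r = 0.990, between 146 and 239 FPKM) and Sqle (0.988), for Il6 Clic4 (0.962) and Rsbn1 (0.956), and for Kitl Il6ra (0.962) and Cstf1 (0.953). For Il11 they were Pin4 (0.931) and Polr2k (0.885). These are correlations of log2(FPKM + 1) picked as the highest among all tested genes, over libraries that share groups and treatments, and they carry no test.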

How the data were processed

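RNA was sequenced from 12 L929 libraries on a BGISEQ-500. The authors aligned the reads to GRCm38.p5 with Bowtie2 2.2.5, estimated expression with RSEM, and deposited FPKM rounded to 2 decimals. RSEM shares multi-mapping reads between genes, so levels of genes with near copies are estimates. FPKM holds no read counts, so no counting interval is given. Of 420 low values, 35.2% lay within 0.1 of a whole multiple of the gene's smallest value over the libraries. Libraries may differ in depth and values are rounded, so this share cannot decide whether whole reads can be recovered. Groups and replicate numbers were taken from the labels.

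Symbols were matched by Entrez Gene identifier through the RefSeq gene table (17450 of 17571 found). limma 3.58.1 in R 4.3.3 was run on log2(FPKM + 1) with 4 group means, contrasts and trended empirical Bayes moderation for the 10412 genes that reached 1 FPKM in 3 or more libraries, with Benjamini-Hochberg adjustment over all of them. Single genes were compared by two-sided exact permutation (Python 3.11.15, numpy 2.4.6, scipy 1.17.1). The fit was tested on simulated data. The study's own test needs read counts and was not used, so its thresholds (FDR of 0.001 and log2 fold change of 2) were applied to limma as an alternative. Also tried were a pseudocount of 0.1 or 0.01, leaving the filter out, a mean of at least 5 FPKM, rescaling to TPM, scaling each library by its 75th percentile, quantile normalization, a fit without trend, the groups compared alone, a replicate block, each library left out, and both libraries that go against their labels left out.

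The cytokines, the gene lists and the 2 libraries left out were chosen with earlier results of these data known. All 10 cytokines are named; from each list, genes called with all libraries (none) and up to 4 with the highest mock level, beside further receptors and genes called without the 2 libraries, which were added after their values were seen; and, as neighbours in pattern, the 5 genes with the highest Pearson r for Csf1 and 2 for each other tested cytokine, of which some are not reported here. Gene positions are from GENCODE on GRCm38, and upstream sequences, found for 7 of 10 cytokines, from RefSeq on GRCm38.p6. Positions of Il34 and Tslp are not given. Of the listed genes, Kit, Cpa3, Fcer1a, Csf2rb, Pdgfra, Lum, Capn2, Tnfsf11, Epo, Vegfc and Cxcl12 were not analysed here, so the mast cell list gave no value.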

Additional observations from a re-analysis of the deposited data

Results flagged for a closer look

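The plasmid effect on Il6, compared between cells with and without BX795, stood out when pEGFP-N1 replicate 2 and BX795+pEGFP-N1 replicate 1 were left out. The difference of the 2 effects, with BX795 minus without, was then -0.98 ± 0.181 on the log2(FPKM + 1) scale (SE, limma adjusted p = 0.0260). The plasmid effect was 1.12 without BX795 and 0.14 with it. With all 12 libraries the difference was -0.59 and was not called (adjusted p = 0.842). Il6 was at most 2.44 FPKM in any library and under the filter of 1 FPKM in all mock libraries, so it was tested only through treated libraries. The comparison holds mock, and this adjusted p is therefore a description and does not show that the effects differ. The part that depth, batch or the labels play in it was not tested.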

How the results depend on the processing

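No cytokine was called with all 12 libraries under either pseudocount, any filter, any scaling, no trend or the study's thresholds. The number called changed with the libraries in the fit. It was 2 for BX795 minus mock when those groups were fitted alone, where 21% of all genes were called (Lif, and Il6, which passed the filter there only through the BX795 libraries). Il6, whose mock values all lie under the filter, is also among those called against mock, in the averaged plasmid effect and in the difference of plasmid effects when both libraries are left out. The rest of this count is for the 6 cytokines tested with both libraries that go against their labels left out. The number called was then 2 for pEGFP-N1 minus mock (3.09% of all genes) and 2 for BX795 minus mock (14.2%). It was 1 for BX795+pEGFP-N1 minus pEGFP-N1 (17.8%) and 2 for the averaged BX795 effect (33.6%), both near the share of all genes. It was 3 for the averaged plasmid effect (3.85%) and 1 for the difference of plasmid effects (0.947%). Leaving out single libraries gave 0 to 1 for pEGFP-N1 minus mock (1 without pEGFP-N1 replicate 2), 0 to 1 for BX795 minus mock (1 without BX795+pEGFP-N1 replicate 1), 0 to 1 for the averaged BX795 effect (1 without either of these) and 0 to 3 for the averaged plasmid effect (3 without pEGFP-N1 replicate 2).

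Small differences changed sign. Il6 in BX795+pEGFP-N1 minus pEGFP-N1 (-0.03) became 0.0097 and 0.0212 with pseudocounts of 0.1 and 0.01 and 0.0043 as TPM, and ran from -0.34 to 0.16 with single libraries left out. Csf1 in the same comparison (0.04) ran from -0.22 to 0.19 with single libraries left out, was -0.22 without pEGFP-N1 replicate 2 and -0.06 without BX795+pEGFP-N1 replicate 1, and was -0.32 without both. The averaged BX795 effect on Csf1 (-0.02) was 0.0141 after quantile normalization and ran from -0.151 to 0.053 with single libraries left out. Lif in BX795+pEGFP-N1 minus BX795 (-0.34) ran from -0.69 to 0.23 and was 0.23 without BX795+pEGFP-N1 replicate 1, alone or with the other. The cause was not tested. As TPM, mean Csf1 was 868 in mock, 1060 with pEGFP-N1, 819 with BX795 and 1084 with both.

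A replicate block changed no call: 0 cytokines were called, Lif with BX795 against mock had an adjusted p of 0.139, and Csf1 with the plasmid stayed at 0.25. Deviations of same-numbered libraries correlated across genes by 0.116 on average and those of other pairs by -0.065, but same-numbered pairs ran from -0.39 to 0.63, so the number was not taken as a pairing. Depth is unknown, and Csf2, Csf3 and Tslp were too low for the test across genes.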
